A study of Mus musculus with 2 samples.

Results

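The genes described here are 40 listed genes of the germ line, most of which act in meiosis, in the piRNA pathway or in testis-restricted gene expression. They were matched by symbol to the Ensembl identifiers of the count tables through GENCODE release M21, and 33 of the 40 had a row among the 24223 genes of each table. The other 7, Syce1, Mei1, Piwil1, Mael, Tdrd1, Tdrkh and Stk31, had no row and were not analysed here. No gene without counts in both libraries has a row, so whether these 7 had no reads is not known. The shares below leave them out. The data are RNA-seq of CT26, a mouse colorectal cancer cell line of BALB/c origin, with 1 library of DAC-treated cells and 1 library of control cells, so that no difference has a replicate check and no p-value is given. DAC (decitabine) was given at 1 μM in 3 doses at intervals of 24 h, and the cells were taken 24 h after the drug had been removed. The control cells were handled in parallel without DAC. No genetic change separates the groups, and what they share is the line itself, an undifferentiated tumor culture that is no model of germ cells.

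Germline genes are largely kept silent in somatic cells, and many of them carry CpG-rich promoters that are methylated outside the germ line. In meiosis, chromosomes are organized along protein axes built of cohesin, HORMA-domain and synaptonemal complex proteins, on which DNA breaks are made and repaired as crossovers. The piRNA pathway loads small RNAs onto PIWI proteins and silences transposable elements in germ cells. Decitabine is incorporated into DNA and traps DNA methyltransferases, and germline genes, among them the cancer-testis antigens, are a known class of genes that respond to it.

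The promoters of 6 members are shown first, because these genes include the members that went from 0 control counts to the highest DAC counts and, as a contrast, members already expressed in control cells. Each sequence is the RefSeq promoter on GRCm38.p6, from 250 bases before to 50 bases after the listed start, in the direction of the gene, and every CpG is in capitals. The regions are chr6:145615713-145616012 (plus strand), chr6:125286032-125286331 (minus), chr3:95559427-95559726 (plus), chr11:121145893-121146192 (plus), chr3:102936051-102936350 (minus) and chrX:134476441-134476740 (minus).
Tuba3b: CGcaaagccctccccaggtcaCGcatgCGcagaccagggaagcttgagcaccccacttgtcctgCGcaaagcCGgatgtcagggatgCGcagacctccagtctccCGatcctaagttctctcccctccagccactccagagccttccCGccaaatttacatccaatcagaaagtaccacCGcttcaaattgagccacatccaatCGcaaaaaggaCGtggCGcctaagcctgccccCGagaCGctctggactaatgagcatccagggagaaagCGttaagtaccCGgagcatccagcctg
Tuba3a: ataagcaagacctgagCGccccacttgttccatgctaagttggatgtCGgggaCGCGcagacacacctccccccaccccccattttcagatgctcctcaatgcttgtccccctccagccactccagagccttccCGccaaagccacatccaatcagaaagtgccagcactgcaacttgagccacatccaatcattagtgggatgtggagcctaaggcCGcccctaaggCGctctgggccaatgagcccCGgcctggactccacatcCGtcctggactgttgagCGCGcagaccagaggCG
Hormad1: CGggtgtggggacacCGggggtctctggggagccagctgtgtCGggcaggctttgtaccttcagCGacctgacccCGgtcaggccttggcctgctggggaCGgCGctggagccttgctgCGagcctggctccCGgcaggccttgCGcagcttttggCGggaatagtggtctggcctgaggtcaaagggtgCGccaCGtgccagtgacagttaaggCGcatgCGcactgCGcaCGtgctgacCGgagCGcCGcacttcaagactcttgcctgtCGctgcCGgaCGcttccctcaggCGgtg
Tex19.1: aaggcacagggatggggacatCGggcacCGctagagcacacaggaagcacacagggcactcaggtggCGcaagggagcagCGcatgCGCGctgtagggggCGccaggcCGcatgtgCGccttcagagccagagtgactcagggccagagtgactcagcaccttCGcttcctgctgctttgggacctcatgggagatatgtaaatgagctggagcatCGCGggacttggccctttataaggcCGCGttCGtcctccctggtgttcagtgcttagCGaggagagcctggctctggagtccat
Sycp1: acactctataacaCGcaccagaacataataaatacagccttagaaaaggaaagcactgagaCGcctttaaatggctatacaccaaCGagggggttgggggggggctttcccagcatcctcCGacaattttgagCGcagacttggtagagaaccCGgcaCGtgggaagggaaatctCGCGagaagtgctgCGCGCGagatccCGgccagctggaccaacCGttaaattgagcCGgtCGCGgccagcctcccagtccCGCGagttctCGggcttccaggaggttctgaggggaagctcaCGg
Taf7l: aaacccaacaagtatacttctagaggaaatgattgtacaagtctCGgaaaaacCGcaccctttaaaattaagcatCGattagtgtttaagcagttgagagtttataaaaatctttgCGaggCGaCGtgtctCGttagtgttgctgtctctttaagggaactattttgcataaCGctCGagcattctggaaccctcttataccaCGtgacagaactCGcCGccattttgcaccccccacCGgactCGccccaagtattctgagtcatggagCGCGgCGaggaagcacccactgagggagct
Tuba3b, Tuba3a, Hormad1 and Tex19.1 were at 0 counts in the control library and at 381, 161, 142 and 109 counts in the DAC library. Sycp1 and Taf7l went the other way, from 457 to 312 and from 352 to 129 counts. They do not stand for all members at 1 CPM (defined below) or more in control. Of the others, Prdm9 and Spo11 were also below control in DAC, while Zcwpw1, Brdt and Piwil4 were above it. The 6 promoters hold 16, 12, 24, 16, 21 and 17 CpG in the order printed, so the CpG number alone does not separate the silent from the expressed genes.

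Levels are given as CPM, the counts per 1e6 counts after TMM scaling (edgeR), where 1 CPM equals 37.6 counts in the DAC and 32.0 counts in the control library. The terms higher and lower are used for genes of at least 1 CPM in one of the libraries whose DAC level was 2-fold or more above or below control, provided that the exact 95% counting interval (Clopper-Pearson) did not reach a ratio of 1. The interval stands in parentheses after a ratio and covers counting error only. A count of 0 was put at 3 counts for a ratio. With 0 in control the ratio is written as at least that fold. These words refer to the placed count alone and not to counting error, and the interval starts lower. With 0 in DAC the placed count raises the ratio instead. Total counts were 35163420 in the DAC and 34221886 in the control library. No gene in the tables is at 0 in both, so a member at 0 in control has at least 1 DAC count by construction, and its direction is not a finding. Whether a count is a single read is not known: 1240 genes had exactly 3 DAC counts and 650 had 4. In bulk RNA, more cells expressing a gene and more RNA per cell cannot be told apart.

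Of the 33 members, 20 reached 1 CPM in either library, and of these 14 were called higher, 1 was called lower and 5 were neither. Over all 13545 genes past the same minimum, 10.8% were called higher and 5.29% lower. Of the 14 higher members, 8 had 0 control counts and passed the minimum through the DAC library alone, so this count is descriptive. By control level, 26 members were under 1 CPM in control, and 13 of them (50%) were called higher. Of these 26, 16 were at 0 in control and have a row only through their DAC counts, as do the genes at 0 in the comparison that follows. The same share was 6.43% of all 11626 genes under 1 CPM in control and 12.6% of the 4450 protein-coding ones. Among the 7 members at 1 CPM or more in control, 1 was higher and 1 was lower, beside 5.72% and 5.68% of all 12597 such genes. These 2 were Zcwpw1 and Taf7l.

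**Figure D1:**
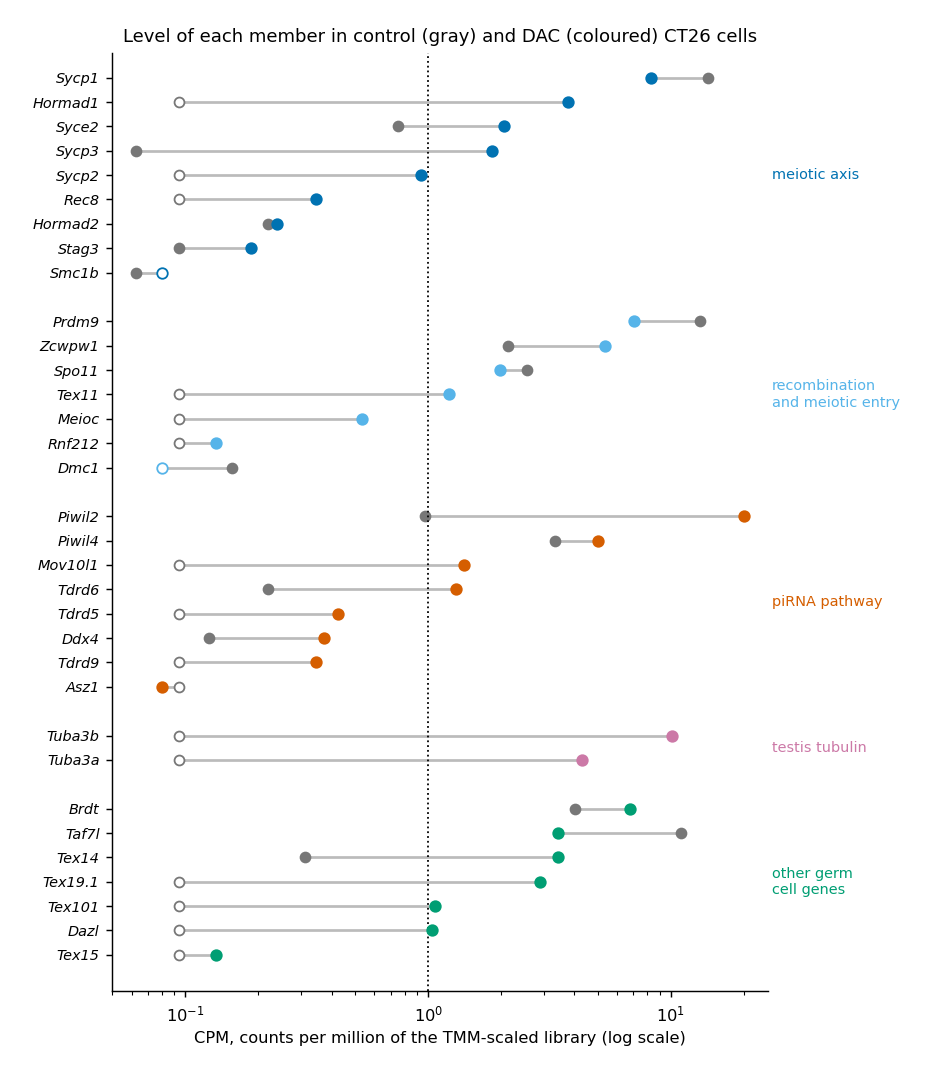
Level of each of the 33 members in CPM (x axis, log scale) in the control library (gray) and the DAC library (coloured by function), 1 library each. Open circles are counts of 0 placed at 3 counts, which can lie to the right of a true count of 3 or fewer (Asz1, Smc1b), and the dotted line marks 1 CPM. Piwil2 reaches 20.1 CPM in DAC, while Sycp1, Prdm9, Spo11 and Taf7l lie lower in DAC than in control.

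The meiotic axis genes split into a few with a clear DAC signal and several that stayed near 0. Hormad1 (chromosome 3, 95559677 to 95587671 on GRCm38), which binds unsynapsed chromosome axes, had 0 control and 142 DAC counts, at least 40.3-fold higher (interval from 32.4). Sycp3, a filament protein of the axial element, went from 2 control counts to 69 in DAC, a ratio of 29.4 (7.84 to 248). Its partner Sycp2 had 0 and 35 counts, at least 9.94-fold higher (from 7.67), but at 0.931 CPM it lay just below the minimum. Syce2, of the central element, had 24 and 77 counts, a ratio of 2.73 (1.71 to 4.52).

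Within the same structure the transverse filament gene Sycp1 behaved differently. It stood at 14.3 CPM in control cells (457 counts) and 8.30 CPM in DAC (312 counts), a ratio of 0.582 (0.502 to 0.673) that does not reach 2-fold. The meiosis-specific cohesin genes gave few counts. Rec8, the kleisin subunit, had 0 and 13 counts, Stag3 had 3 and 7, and Smc1b had 2 and 0. The other HORMA-domain gene, Hormad2, had 7 and 9 counts, a ratio of 1.096 (0.363 to 3.46). In all, 3 of 9 axis genes with a row were called higher and none lower, and 5 were under the minimum in both libraries. The 3 were among 8 axis genes under 1 CPM in control, beside 12.6% of protein-coding genes called higher at that level. With so few genes the group counts are descriptive.

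The mitotic counterparts of the cohesin genes were far more abundant in both libraries, which sets the scale of these signals. Per kilobase of exon, Rec8 stood at 0.118 CPM in DAC and its counterpart Rad21 at 96.2, so that Rec8 came to 0.123% of Rad21. Stag3 came to 0.226% of Stag2 on the same scale. Rad21, Stag2 and Smc1a themselves had ratios of 0.665, 0.732 and 0.614, all short of 2-fold.

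Genes of recombination and meiotic entry held the most members already expressed in control cells. Prdm9, the histone methyltransferase that positions meiotic breaks, went from 422 control counts to 265 in DAC, a ratio of 0.535 (0.457 to 0.626). Spo11, which makes the breaks, had 82 and 74 counts, a ratio of 0.769 (0.554 to 1.07) whose interval includes 1. Zcwpw1, a reader of the histone marks set by PRDM9, had 68 and 201 counts and was the lone member called higher from a control level above 1 CPM, at 2.52-fold (1.90 to 3.37).

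The remaining genes of this group started at or near 0. Tex11, an X-linked crossover factor, had 0 and 46 counts, at least 13.1-fold higher (from 10.2). Meioc, which sustains the meiotic program, had 0 and 20 counts, at 0.532 CPM in DAC. Rnf212, a crossover ligase, had 0 and 5 counts, and Dmc1, the meiotic recombinase, had 5 control counts and 0 DAC counts. Thus 2 of 7 genes were called higher and none lower, and the break machinery (Prdm9, Spo11) and the strand exchange gene Dmc1 were not among them. Of the 4 under 1 CPM in control 1 was higher, beside 12.6% of protein-coding genes at that level. Of the 3 at 1 CPM or more in control 1 was higher, beside 5.72% of all such genes.

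In the piRNA pathway, Piwil2 stood apart by its level. This gene (chromosome 14, 70372477 to 70429383), which encodes a PIWI protein of the cytoplasmic piRNA cycle, had 31 control and 755 DAC counts, or 0.968 and 20.1 CPM, a ratio of 20.8 (14.5 to 30.8). No 50-base stretch of its longest transcript was found in another gene. Piwil4, the PIWI protein that acts in the nucleus, had 107 and 189 counts, a ratio of 1.51 (1.18 to 1.93). The 2 PIWI genes thus differed in size of response, and their intervals do not overlap.

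The cofactors of the pathway were lower in level. Mov10l1, the helicase that feeds piRNA precursors into processing, had 0 and 53 counts, at least 15.1-fold higher (from 11.8). Among Tudor-domain genes, which tether PIWI proteins, Tdrd6 had 7 and 49 counts, a ratio of 5.97 (2.69 to 15.6). Tdrd5 had 0 and 16 and Tdrd9 0 and 13 counts, both under 1 CPM. The helicase gene Ddx4, also known as vasa, had 4 and 14 counts, a ratio of 2.98 whose interval (0.937 to 12.4) includes 1. Asz1, a factor at the mitochondrial surface, had 0 and 3 counts, which gives no fold. Of the 8 piRNA genes with a row, 3 were called higher and none lower, and 4 stayed under the minimum. The 3 were among 7 under 1 CPM in control, beside 12.6% of protein-coding genes called higher at that level.

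The testis alpha-tubulin genes gave the clearest step from 0. Tuba3b (chromosome 6, 145615757 to 145621479) had 0 control and 381 DAC counts, at least 108-fold higher (from 87.6), and Tuba3a (chromosome 6, 125278274 to 125286042) had 0 and 161 counts, at least 45.7-fold higher (from 36.8). They are near copies: 95.9% of 1509 aligned bases of their longest transcripts are identical, and Tuba3b shares 27.4% of its 50-base stretches with Tuba3a. How the DAC counts divide between them is therefore uncertain, while their sum, 542 counts against 0, is not affected by that. Against the abundant tubulins they remained minor. Summed per kilobase of exon over 7 alpha-tubulin genes, Tuba3a and Tuba3b made up 0.740% of the DAC level, and Tuba1b 57.0%.

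Of the other germ cell genes, 4 of 7 were called higher and 1 lower. The 4 were among 5 under 1 CPM in control, beside 12.6% of protein-coding genes called higher at that level. Tex19.1, which restrains retrotransposons in germ cells and placenta, had 0 and 109 counts, at least 31.0-fold higher (from 24.8). Tex14, needed for the bridges between germ cells, had 10 and 129 counts, a ratio of 11.0 (5.79 to 23.5). Tex101, a germ cell surface protein, and Dazl, an RNA-binding protein of germ cells, had 0 control counts and 40 and 39 DAC counts, 1.06 and 1.04 CPM, the members just inside the minimum.

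Taf7l, Brdt and Tex15, the rest of these other germ cell genes, were not called higher. Taf7l (chromosome X, 134460118 to 134476490), the testis paralog of a TFIID subunit, was the only member called lower, with 352 control and 129 DAC counts, 3.20-fold lower (2.61 to 3.95). Per kilobase of exon it came to 111% of its somatic paralog Taf7 in control and 34.9% in DAC, while Taf7 had a ratio of 0.991 (0.874 to 1.12). Brdt, the testis bromodomain protein of the BET family, had 129 and 256 counts, a ratio of 1.69 (1.36 to 2.11), short of 2-fold. Tex15, which is needed for piRNA-directed silencing, had 0 and 5 counts. The 2 X-linked members, Tex11 and Taf7l, were called in opposite directions.

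**Figure D2:**
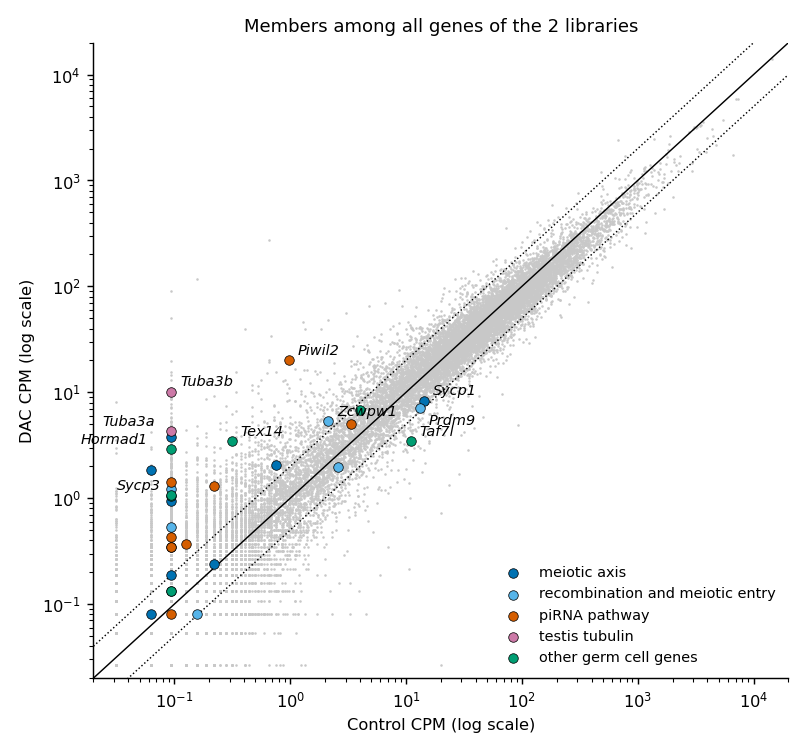
CPM of every gene in control (x axis) and DAC (y axis), both on log scales, with genes in light gray, the 33 members coloured by function and counts of 0 placed at 3 counts. The solid line marks equal CPM and the dotted lines 2-fold differences, and the members form a column at the control floor that reaches 10.1 CPM for Tuba3b, while Piwil2 lies highest and Taf7l lies below the lower dotted line.

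Members that stayed silent were not all at 0. Of the 13 members under 1 CPM in both libraries, 5 (Sycp2, Rec8, Meioc, Tdrd5 and Tdrd9) were past 2-fold with an interval above 1 when no minimum was set, with 13 to 35 DAC counts. Without a minimum, 19 members were called higher and 1 lower, beside 11.0% and 5.11% of all 24223 genes. The other 8, Hormad2, Stag3, Smc1b, Dmc1, Rnf212, Asz1, Ddx4 and Tex15, had between 0 and 14 DAC counts and showed no difference beyond counting error past 2-fold, which at this depth does not show that they were absent.

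The 16 members at 0 control counts can be set beside all genes with 0 control counts, a group that the DAC library does not choose except that it must hold a count. Their DAC counts ran from 3 to 381 with a median of 37, and 8 of 16 (50%) reached 1 CPM. Of all 3506 genes at 0 in control, 3.62% reached 1 CPM and were called higher, of the 1617 protein-coding ones 6.56%, and their median DAC counts were 3 and 5. The members were listed with results of these data known, so this gap describes the list and is no test of it.

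**Figure D3:**
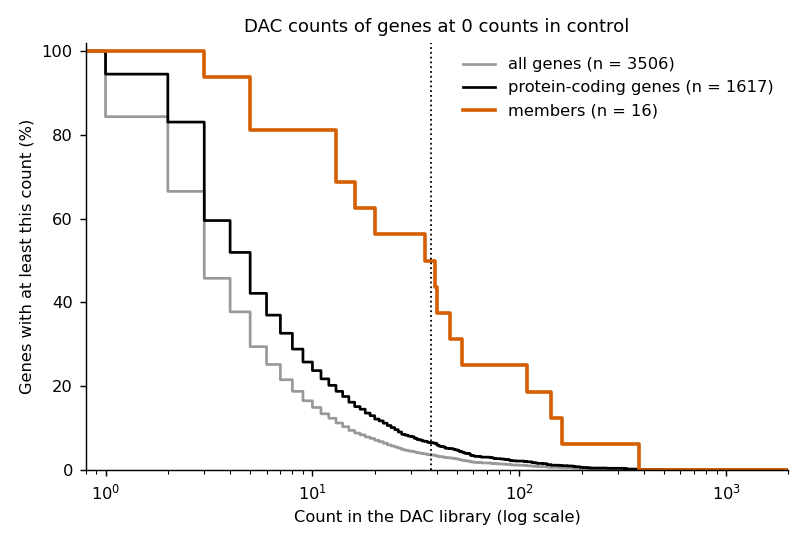
Share of genes (y axis, %) with at least the DAC count on the x axis (log scale), among genes at 0 counts in control, for all 3506 genes (gray), the 1617 protein-coding genes (black) and the 16 members (orange). The dotted line marks 1 CPM in the DAC library, which 8 of the 16 members and 6.56% of protein-coding genes reached.

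In level, the induced members remained modest. Per kilobase of exon, the DAC order began with Tuba3b at 5.71 CPM, Piwil2 at 3.80, Tuba3a at 2.84, Sycp1 at 2.33 and Hormad1 at 2.19. On that scale Tuba3b lay above 56.8% of the 15369 protein-coding genes in the DAC library and Piwil2 above 48.7%, against 25.7% for Piwil2 in control. Control cells had another order, led by Taf7l at 4.90, Sycp1 at 4.01 and Prdm9 at 3.06 CPM per kilobase. Those 3 genes lay at 1.53, 2.33 and 1.64 in DAC.

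Other genes of the same pathways, listed for comparison and not members, held both higher genes and genes near 0. Of 25 further meiosis genes with a row, 3 were called higher and none lower, and 13 were under the minimum in both libraries. Of the 15 under 1 CPM in control 2 were higher, near the 12.6% of protein-coding genes at that level. Of the 10 at 1 CPM or more in control 1 was higher, beside 5.72% of all such genes. Ccnb1ip1, a crossover ligase also known as Hei10, had 0 and 182 counts, at least 51.7-fold higher (from 41.6), and Rec114, a partner of the break machinery, had 10 and 44 counts, a ratio of 3.75 (1.86 to 8.36), with 29.3% of its 50-base stretches shared with its abundant neighbor Nptn. Cpeb1, a translational regulator, was 2.33-fold higher (1.73 to 3.18). Meiosis genes that mitotic cells also use, such as Trip13, the most abundant of this list per kilobase, and Psmc3ip, had ratios of 1.07 and 0.794. Below the minimum, 4930447C04Rik, a central element gene also known as Six6os1, had 28 control and 0 DAC counts, and it is named here because its values stood out.

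Of 17 further piRNA and genome defence genes, 3 were called higher and none lower. Of the 12 under 1 CPM in control 2 were higher, beside 12.6% of protein-coding genes at that level. Of the 5 at 1 CPM or more in control 1 was higher, beside 5.72% of all such genes. Btbd18, a nuclear factor of pachytene piRNA loci, had 12 and 146 counts, a ratio of 10.4 (5.76 to 20.5), Tex19.2, the neighbor and paralog of Tex19.1, had 0 and 43 counts, and Gtsf1, a PIWI cofactor, was 2.38-fold higher (1.92 to 2.98). Of 15 further germ cell genes, 4 were called higher and none lower: Pet2 (0 and 495 counts), Tex13b (0 and 195), Sohlh2 (0 and 84) and Slc25a31 (0 and 60). These 4 were among 14 under 1 CPM in control, beside 12.6% of protein-coding genes at that level, and passed the minimum through the DAC library alone. Pet2 was also the most abundant gene of the germ cell list per kilobase of exon, and the most abundant of the piRNA list, Tdrd7, had a ratio of 1.23. The median log2 ratios of the 3 lists were 0.12, 0.77 and 1.23, against 1.88 over the 33 members and -0.11 over all 24223 genes, with counts of 0 at 3 counts. The 3 lists held 4 of 25, 6 of 17 and 11 of 15 genes at 0 in control. The members held 16 of 33 and all genes 3506 of 24223. Such genes have a row only through their DAC counts, so the order of these medians is not a finding.

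Of 21 haploid spermatid genes listed, which serve later steps of sperm formation, 10 had a row and 5 reached 1 CPM. None of these 5 was called in either direction, a number too small to set against the 10.8% of all genes, and the median log2 ratio of the 10 was 0.12. Acrbp, Crem and Odf2, all above 1 CPM in the control library already, had ratios of 1.09, 1.08 and 0.964, and Tnp2, a transition protein, had 0 and 1 counts. Izumo1, a sperm protein of egg fusion, had 5 and 18 counts, a ratio of 3.07 (1.098 to 10.6) below the minimum. Factors known to keep germline genes silent were also within 2-fold in RNA, 0 of 21 being called. All 21 stood at 1 CPM or more in control, where 5.72% of all genes were higher and 5.68% lower. With so few genes, 0 calls is near those shares. Protein of these factors was not measured here. Dnmt1 had a ratio of 0.994, E2f6, a DNA-binding repressor of germline promoters, 1.40 (1.23 to 1.59), its partners Mga and Pcgf6 0.787 and 0.762, and Uhrf1 and Trim28 1.67 and 1.68. Dnmt3b lay nearest to the limit, with 47 and 107 counts, a ratio of 1.94 (1.36 to 2.80).

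**Figure D4:**
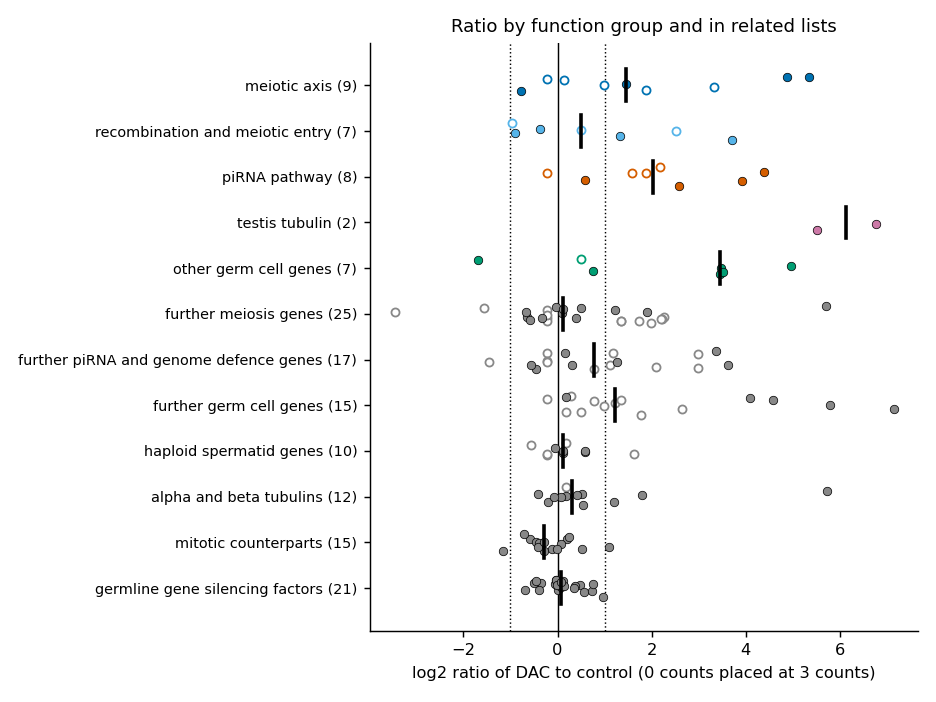
Ratio of each gene between DAC and control on the log2 scale (x axis), by function group of the members (coloured) and in comparison lists (gray), with the number of genes in parentheses and the median as a black bar. Filled points reached 1 CPM in either library and open points did not, the dotted lines mark 2-fold, and the silencing factors all lie within 2-fold while the testis tubulins lie at 5.52 and 6.76.

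Promoters were found for 28 of the 33 members in the RefSeq table. Their median CpG ratio, observed over expected from base composition, was 0.71, against 0.38 for all 32851 promoters, and their median GC content was 60.5% against 52.7%. Within the members the states overlapped: the median was 0.69 for the 11 called higher (0.47 to 1.06), 0.74 for the 5 expressed in control and not higher (0.54 to 1.03) and 0.79 for the 12 under 1 CPM in both libraries (0.36 to 1.11). A CpG-rich promoter was thus shared by members of every state. Methylation of these promoters was not measured in the files used here.

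**Figure D5:**
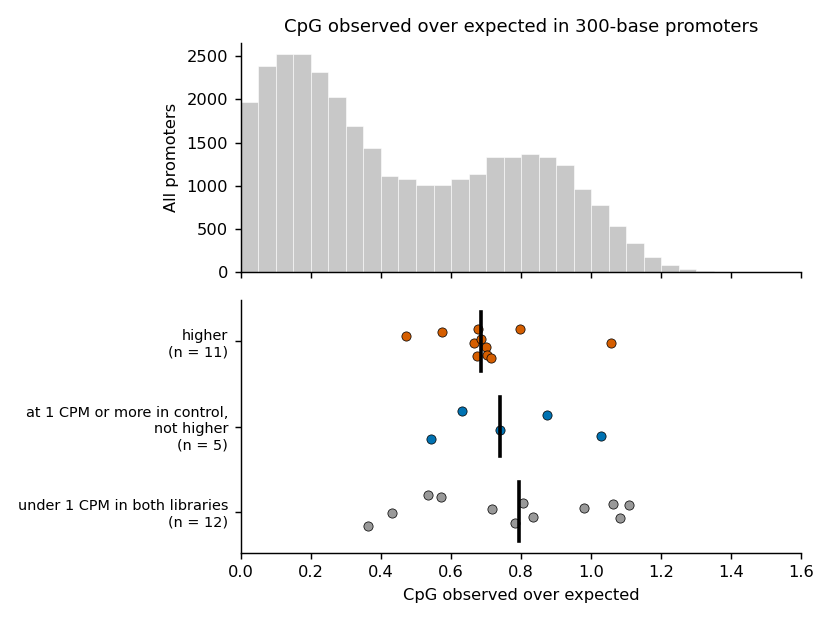
CpG observed over expected (x axis) in promoters of 300 bases, as a histogram of all RefSeq promoters (top, number of promoters) and as points for the members by expression state (bottom, black bars are medians). The medians of 0.69, 0.74 and 0.79 lie in the upper mode of the histogram, and the 3 states overlap.

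Letters linked to repressors of germline genes were then counted in the same windows. The E-box CACGTG, which reads alike on both strands, was present in 10 of 28 member promoters (35.7%) and in 7.15% of all promoters. The E2F-type letters GCGGGA, or TCCCGC on the other strand, were present in 17 of 28 (60.7%) and in 6562 of all 32851 promoters. Among the 14281 promoters with at least 10 CpG, the lowest number in a member, the shares were 10.9% and 40.3%, nearer to those of the members. In the promoters printed above, Hormad1 holds CACGTG starting 57 and 20 bases before the listed start and the E2F-type letters 95 bases before it, while Tuba3a, Tuba3b and Tex19.1 hold the E2F-type letters 119, 106 and 33 bases before it and no E-box. The printed promoters of Sycp1 and Taf7l, expressed in control, hold the E-box too, 94 and 49 bases before the start. Sycp1 also has the E2F-type letters just after its start. Of the 5 promoters of members expressed in control and not higher, 3 hold the E-box, and those of Prdm9 and Piwil4 do not.

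Members of every state held these letters. At least 1 of both was present in 8 of the 11 promoters of higher members, in 4 of the 5 expressed in control and in 9 of the 12 that stayed under 1 CPM. The same held for 25.1% of all promoters and 46.8% of those with at least 10 CpG. Tuba3a and Tuba3b, which moved together, are alike in their promoters too, with 77.0% identical bases over 265 aligned. Such matches describe the letters of these windows and do not show binding.

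Sequence shared with other genes bears on a few members. Sycp3 overlaps the exons of Chpt1 on the opposite strand over 52.2% of its exon length, and the library kit does not mark strand. Chpt1 had 869 control and 682 DAC counts while Sycp3 had 2 and 69, so that Sycp3 was near 0 in control cells while the overlapping gene was not. Hormad1 shares 27.2% of its 50-base stretches with other genes, chiefly with Gm15529, which had 0 and 2 counts. Of the other members called, Tex19.1 shares 2.95% of its stretches and Zcwpw1 2.15%, and Piwil2, Mov10l1, Tex11, Tex14, Tex101, Dazl, Tdrd6, Syce2 and Taf7l share none.

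Markers of other cell types were read in the same libraries. Of 5 leukocyte markers only Ptprc had a row, with 3 control and 0 DAC counts, and the 3 endothelial markers summed to 11 and 31 counts. Of 6 markers of spermatogonial stem cells, 3 had a row, and these summed to 39 and 28 counts. Of the 6 mesenchymal markers 5 reached 1 CPM, all in control already, and none was called. Of all genes at that control level 5.72% were higher and 5.68% lower. In level, 3 of the 6 mesenchymal markers were above and 3 below control. Among them Vim had 36138 and 48746 counts and Col1a2 52873 and 36561. Of 10 intestinal epithelial markers 8 had a row, and 3 of the 4 that reached 1 CPM were called higher: Krt8 (5 and 4445 counts), Krt19 (12 and 58) and Krt20 (593 and 1548). The other was Krt18, at 1797 and 3579 counts. Krt8 and Krt19 passed the minimum through the DAC library alone. Of the 6 markers under 1 CPM in control 2 were higher, beside 12.6% of protein-coding genes at that level. Of the 2 at 1 CPM or more in control 1 was higher, beside 5.72% of all such genes. Cdh1 (0 and 9 counts), Vil1 (0 and 12), Cdx2 (4 and 22) and Lgr5 (0 and 2) were under 1 CPM in both libraries, and Cdx1 and Epcam were not analysed here. The part of these markers in the values of the members was not tested.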

How the data were processed

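RNA-seq of 1 DAC-treated and 1 control CT26 library was used. The authors deposited whole-number counts per Ensembl gene without normalization. According to the study's methods the TruSeq libraries were poly-A selected and processed with CASAVA, TopHat and Bowtie. The submitters' processing notes list StringTie 1.3.1c, STAR 2.5.3a, DESeq, Cufflinks, FastQC, Trim Galore and the build mm10. How the counts came from these tools, and with which strand setting, is not stated in what was read here. An estimated count would make counting intervals too narrow.

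GENCODE M21 (GRCm38, the assembly of mm10) named 24122 genes and left 101 unmatched. TMM factors came from edgeR 4.0.16 (1.07 for DAC, 0.936 for control), ratios and exact intervals from Python 3.11.15 with scipy 1.17.1. Exon length is the union of a gene's exons. Shared stretches are 50-base stretches of the longest transcript found in transcripts of another gene on either strand. The pipeline was tested on simulated libraries. All 40 members were named, with, per comparison list, up to 4 higher and 2 lower genes and its most abundant gene; other genes named (such as E2f6, Mga, Uhrf1, Trim28, Trip13 and Krt8) were chosen after their values were seen. Members, lists and motifs were chosen with earlier results of these data known. Alternatives were other scalings (library totals, DESeq2 1.42.0, upper quartile, GC centring in 20 bins), minimums, folds, prior counts, thinning, and intervals from counts divided by 3.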

Additional observations from a re-analysis of the deposited data

How the results depend on the processing

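None of the 15 calls among members changed with library totals, DESeq2 size factors, upper-quartile factors, GC centring, a prior count of 2 or 5, thinning, or intervals from counts divided by 3. Library totals raised the median log2 ratio of all measured genes by 0.19 and gave 1889 higher and 458 lower genes, against 1468 and 716. The minimum decided most: at 5 CPM, 3 members were higher (Piwil2, Tuba3b and Zcwpw1), all 3 from under 5 CPM in control, which left 0 of the axis group, 1 in recombination, 1 in the piRNA pathway, 1 tubulin and 0 of the other germ cell genes, and 0, 1 and 2 in the further meiosis, piRNA and germ cell lists. At 0.5 CPM the further meiosis and piRNA lists had 7 and 5 higher genes. With no minimum the axis and piRNA groups had 5 each, the further meiosis, piRNA and germ cell lists 10, 7 and 7, and the spermatid list 1. At a fold of 4 the call of Taf7l ended (0 lower members), recombination had 1 higher, the further meiosis list 1, the tubulin list 1 and the mitotic counterparts 0. With intervals wholly beyond 2-fold, recombination and the further meiosis list had 1 higher gene each and the mitotic counterparts 0. The mitotic counterparts also had 0 after GC centring, which ended the call of Mov10, and library totals gave 1 silencing factor, Dnmt3b. Of 400 log2 ratios of 50 genes under 8 alternatives, 378 stayed within the main counting interval and 22 moved. Dividing counts by 3 changes the interval and not the ratio, so for all 50 genes that alternative stayed by construction. With 0 in control the interval is open above, so such a ratio could leave it only downward. The sign turned for Hormad2 alone, from 0.13 to -0.0083 with a prior count of 5, both near 0 and neither called. No paired analysis was possible because each group holds 1 library, and none could be left out. Depth limits the 13 members under 1 CPM, which differ by few counts.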

Other observations

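Of 15 mitotic or somatic counterparts of the members, 1 was called higher and 1 lower, close to the 5.72% and 5.68% of all genes at 1 CPM or more in control. Mov10, the broadly expressed paralog of Mov10l1, went from 1005 control counts to 2514 in DAC, a ratio of 2.13 (1.98 to 2.30), and Ago3, a cytoplasmic relative of the PIWI proteins, was 2.24-fold lower (3123 and 1635 counts), while Ago2 had a ratio of 0.746. Among 12 tubulins other than Tuba3a and Tuba3b, 11 reached 1 CPM and 3 were called higher, beside 10.8% of all genes past that minimum. By control level, 2 of the 10 at 1 CPM or more were higher, beside 5.72% of all such genes. The 3 were Tubb2b, a beta tubulin of neurons (0 and 186 counts, with 39.3% of its 50-base stretches shared, mainly with Tubb2a), Tuba4a (3.46-fold, 2.93 to 4.09) and Tubb3 (2.30-fold, 1.86 to 2.88). Tuba4a shares 48.8% of its stretches with other genes, mainly Stk16. After GC centring Mov10, Ago3 and Tubb3 were within 2-fold, at log2 ratios of 0.83, -0.89 and 0.94, and Ago3 also by library totals (-0.97).

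For testis somatic cells 7 markers were listed, 5 had a row and 3 reached 1 CPM. Among those 3, 1 was called higher and none lower, beside 10.8% and 5.29% of all genes past that minimum. It passed the minimum through the DAC library alone. The called gene was Nr5a1, a regulator of steroid hormone synthesis, with 3 counts in control and 289 in DAC. Its ratio was 82.1 (27.8 to 400). Rhox5, a homeobox gene of Sertoli cells, was abundant in both libraries (13167 and 10947 counts), and Gata4 stayed within 2-fold at 1.13. Amh (9 and 32 counts) and Insl3 (11 and 14) were under 1 CPM in both libraries.

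Of 28 nearest measured neighbors of the higher members, 4 were higher and 1 was lower, and of 38 neighbors of the other members 2 were higher and 3 lower, beside 10.8% and 5.29% of all genes past the minimum. The 5 called neighbors of higher members were Ctss, which lies 3.27 kb from Hormad1 and had 0 and 56 counts, Tex19.2, 27.5 kb from Tex19.1, Cd177, 67.3 kb from Tex101 (2.69-fold, 1.70 to 4.41), Daam2, 715 kb from Dazl (2.20-fold, 1.27 to 3.95), and the lower gene Cyp3a13, 70.3 kb from Zcwpw1 (324 and 103 counts). Golph3l, on the other side of Hormad1 at 1.26 kb, had a ratio of 1.39 (1.28 to 1.51). Whether transcripts run through from one gene to the next was not tested.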
